A study of Mus musculus with 16 samples.

Results

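The semaphorins, Slits, netrins and ephrins, together with the plexins, neuropilins, Robos, DCC and UNC5 receptors and Eph kinases that bind them, were examined in cultured mouse oligodendrocyte precursor cells (OPCs). Members were the protein-coding genes whose symbols belong to these families, 69 of the 55335 genes in the count files. The symbol patterns also matched 3 antisense transcripts of Plxna4, which were left out. All 69 members passed the filter on low counts. There were 7 secreted class 3 semaphorins, 13 class 4 to 7 semaphorins, 9 plexins, 2 neuropilins, 3 Slits, 4 Robos, 4 netrins, 5 DCC and UNC5 receptors, 5 ephrin-A and 3 ephrin-B ligands, and 9 EphA and 5 EphB receptors. By family these are 35 ligands and 34 receptors.

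Guidance cues were named for steering growth cones, the motile tips of axons. Class 3 semaphorins are secreted and bind neuropilins, which signal through plexins, whereas most transmembrane semaphorins bind plexins directly. Slits are secreted repellents that bind Robos. Netrins attract through DCC and repel through UNC5 receptors. Ephrins are tethered to the membrane by a lipid anchor (ephrin-A) or a membrane-spanning segment (ephrin-B), and their Eph receptor kinases can signal in both directions across a cell contact. Cells of the oligodendrocyte lineage, which produce myelin, use several of the same cues to migrate and to meet axons.

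The cells were grown from neural stem cells of a C57BL6J/129svEmx mixed background, and RNA was taken after 4 days in monolayer. There were 4 groups of 4 libraries: RXRg+/+ (WT) or RXRg-/- (RXRgKO) by label, each untreated or given triiodothyronine (T3), the active thyroid hormone, for 24 h. RXRg is a nuclear receptor of the retinoid X family, which pairs with thyroid hormone receptors among others, and the comparisons ask how T3 and the RXRg genotype change the RNA of these cells. The labels do not say how the RXRg allele was made, and they do not say that libraries of a group came from separate animals or cultures. The p-values therefore reflect only how much these libraries vary, which may be technical.

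Libraries held 18262279 to 42588442 counts in genes, of which the members took 0.27% to 0.515%. Rxrg itself went against the labels: its normalised count, in CPM (counts scaled to library size with TMM factors), was 1.51 ± 0.282 (SD, n = 4) in the untreated WT-labelled and 4.25 ± 0.546 in the untreated RXRgKO-labelled libraries, so every direction between genotypes below is between labels. Within each group the libraries fell into sets. Replicate 1 stood apart in both WT-labelled groups, and in the RXRgKO-labelled groups untreated replicates 1 and 3 and T3-treated replicates 1 and 2 nearly lacked Xist, the RNA of the inactive X chromosome (1.39 to 3.75 CPM). Pairs of libraries of a group had a chi-square per gene of 1.503 to 2.12 within sets and 4.94 to 9.62 across sets. In WT-labelled replicates 2 to 4, Xist was at 1198 to 1382 CPM in untreated and 276 to 365 CPM in T3-treated libraries. A difference in the cells cultured and the T3 treatment therefore cannot be told apart there. The same limit holds for the RXRgKO-labelled libraries with Xist, where Ddx3y, a gene of the Y chromosome, differed by treatment. Untreated replicates 2 and 4 held 52.9 and 51.2 CPM of it, and T3-treated replicates 3 and 4 held 22.1 and 20.7 CPM. Where Xist was nearly lacking, Ddx3y changed little (115 and 118 CPM without T3, 126 and 124 CPM after it). All 7 OPC markers (such as Pdgfra, Olig2 and Sox10) were detected, with summed levels of 1968 to 5058 CPM across all libraries, and markers of mature oligodendrocytes summed to 1655 to 28510 CPM. Astrocyte markers summed to 2844 to 15230 CPM and neuron markers to 326 to 880 CPM, so the cultures also held RNA of other cell types. Sums over different genes do not give the shares of cells.

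Plexins, transmembrane semaphorins and an ephrin had the highest levels. Levels of different genes were compared as RPKM, the CPM per kilobase of exon, averaged over the 16 libraries. Plxnb3, the B-type plexin that binds Sema5a, had the highest level at 75.8 RPKM. It was followed by Sema6d at 35.4 and Sema6a at 34.2 RPKM, both transmembrane semaphorins that bind A-type plexins, by Plxnb2 at 27.3, the ephrin Efnb3 at 25.2 and Plxnb1 at 25.1 RPKM. This order is that of the mean over all groups. In the untreated RXRgKO-labelled libraries Plxnb2, at 30.7 RPKM, and Plxnb1, at 27.7, were above Sema6d at 23.7 and Sema6a at 12.8 RPKM, and Efnb3 at 8.37 RPKM was below Epha4 at 13.9 RPKM. After Efnb3, the leading genes of the ephrin pathway were the receptors Epha4 at 19.5 and Ephb1 at 14.2 RPKM over all groups.

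Netrin and Slit pathway genes were lower per length. Dcc, the attractive netrin receptor, averaged 7.79 RPKM, Ntn1, the founding netrin, 6.67, and Ntn4, a netrin of basement membranes, 5.13 RPKM. Robo2 led the Slit pathway at 5.27 RPKM, ahead of the ligand Slit1 at 3.06 and the receptor Robo1 at 2.92 RPKM. Slit2, a Slit ligand well studied at the midline of the nervous system, averaged 1.82 RPKM, and Nrp1, the class 3 semaphorin co-receptor, 2.08 RPKM. Robo4, a Robo best known from endothelial cells, was lowest at 0.0635 RPKM.

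Family sums, added over members in each library, separated the groups for some families only. Class 3 semaphorins summed to 7.45 to 9.04 RPKM in the untreated WT-labelled libraries and 13.0 to 18.1 with T3, and to 8.49 to 13.0 and 21.7 to 25.5 RPKM under the RXRgKO label. Every T3-treated library thus lay above every untreated library of its label. Class 4 to 7 semaphorins ran from 141 to 199 RPKM untreated under the WT label against 66.7 to 103 RPKM under the RXRgKO label, without overlap. Ephrin-B ligands also did not overlap between labels, at 34.7 to 49.6 against 19.6 to 32.3 RPKM untreated and 44.8 to 73.2 against 15.4 to 31.0 RPKM with T3.

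Among the other families, Slit sums had lower means with T3 under both labels. The means were 5.44 RPKM untreated and 3.18 with T3 under the WT label, and 7.30 and 4.94 RPKM under the RXRgKO label. Their ranges overlapped between treatments, but within each library set every T3-treated library lay below every untreated one. Robos spanned 8.04 to 9.55 RPKM untreated and 5.53 to 7.25 with T3 under the WT label, where the treatments did not overlap, and 7.79 to 11.1 and 7.03 to 11.6 RPKM under the RXRgKO label, where they did. Netrins were higher under the RXRgKO label without T3, at 13.5 to 23.5 against 10.9 to 12.3 RPKM. Plexin sums overlapped in all 4 comparisons of groups. These sums are descriptions with no test, and a family's sum follows its most abundant members.

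**Figure D1:**
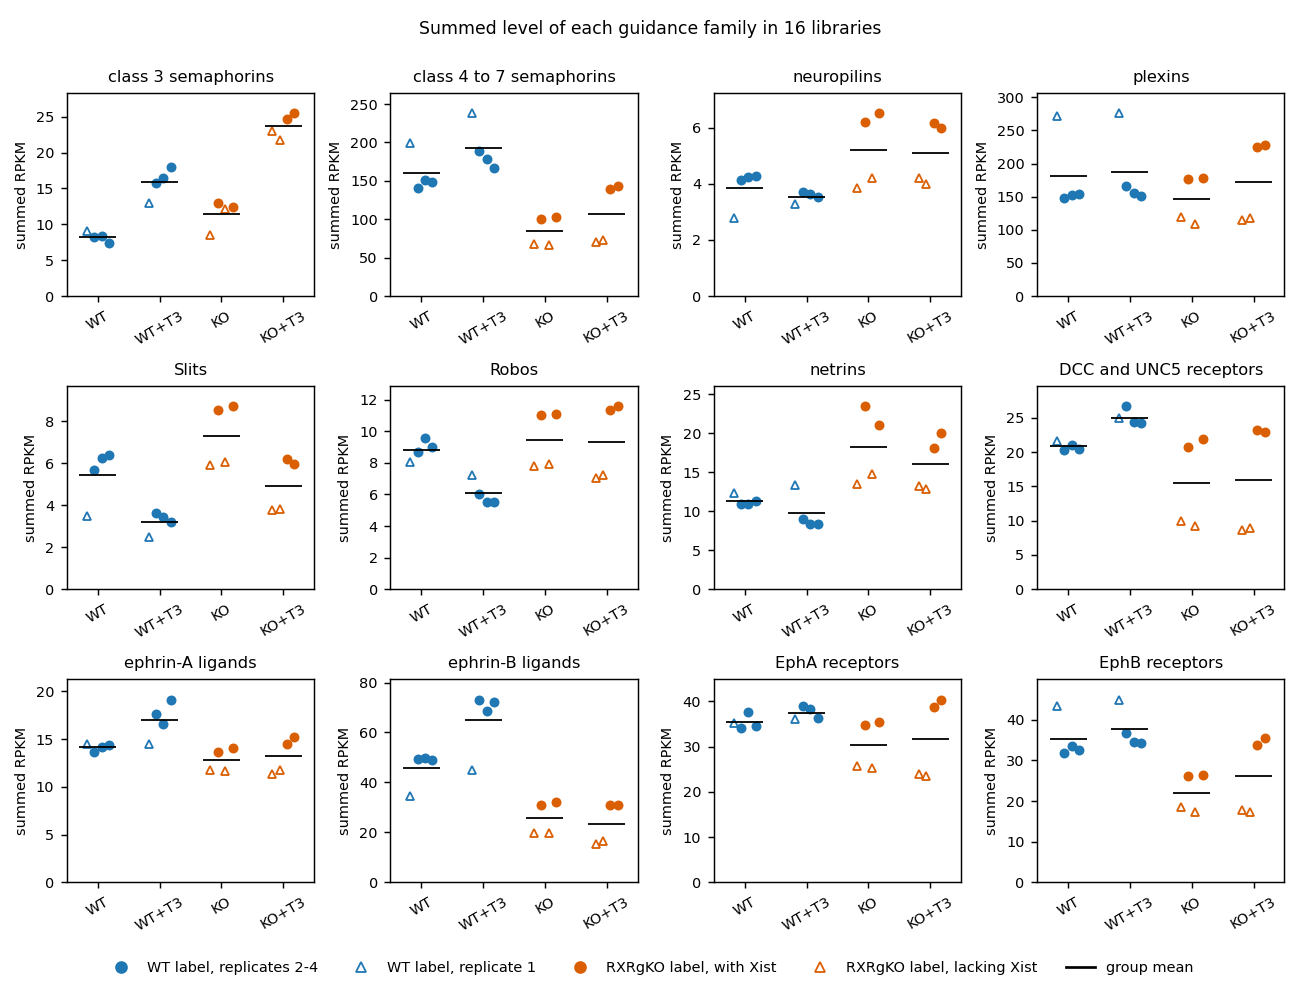
Summed RPKM (vertical axes, linear from 0) of the 12 families in each of the 16 libraries, by group (KO is the RXRgKO label), with open triangles for the library sets described in the text and bars for group means. Class 3 semaphorins rise from at most 9.04 to at least 13.0 RPKM with T3 under the WT label, and ephrin-B ligands lie lower under the RXRgKO label with and without T3.

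In the WT-labelled libraries, T3 went with changes in both directions, led by a fall of Slit1 and a rise of Sema3c. By edgeR's quasi-likelihood test over all 19764 genes, at a Benjamini-Hochberg adjusted p under 0.05, 2 members rose and 8 fell, or 14.5% of the members against 8.44% of all genes (4.96% higher and 3.48% lower). The split was 4 higher and 7 lower with DESeq2's size factors in place of TMM, 8 and 9 with DESeq2 itself, and 9 and 11 with only the WT-labelled groups in the fit. Of all genes, 8.72%, 12.2% and 9.35% were called in these settings. The members' median log2 fold change was -0.18, against -0.03 for all genes. The library sets differed in sign. The median was 0.13 within replicate 1 (-0.03 for all genes), where 42 of 69 members were positive. It was -0.28 within replicates 2 to 4 (-0.036 for all genes), where 47 were negative. Signs were not counted over all genes. The genes that fell were Slit1, Robo1, Sema3a, Efna3, Efnb1, Epha5, Epha8 and Ephb3, and those that rose were Sema3c and Plxnd1.

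Slit1 (ENSMUSG00000025020; GRCm38 chromosome 19, 41600257 to 41743665, minus strand), a secreted repellent, was at 13.0, 23.9, 26.7 and 28.2 CPM in the untreated WT-labelled replicates 1 to 4 and at 5.34, 8.26, 6.74 and 6.64 CPM with T3. Every T3-treated library lay below every untreated one, although untreated replicate 1 was the lowest of its group. The log2 fold change was -1.77 (SE 0.22, edgeR adjusted p = 9e-05). It was -1.26 within replicate 1 and -1.85 within replicates 2 to 4. Robo1, its receptor, fell by 0.71 on the log2 scale (edgeR adjusted p = 0.0416), from 29.3 to 46.4 CPM untreated to 23.6 to 26.0 CPM with T3, at -0.19 within replicate 1 and -0.85 within replicates 2 to 4.

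Sema3c (ENSMUSG00000028780; GRCm38 chromosome 5, 17574281 to 17730268, plus strand), a secreted semaphorin, moved the other way. It was at 3.82, 14.2, 13.6 and 11.3 CPM in untreated and 15.0, 46.3, 52.3 and 62.8 CPM in T3-treated libraries. Replicate 1 was far the lowest in both treatments, and the groups did not overlap. The log2 fold change was 2.04 (SE 0.39, edgeR adjusted p = 0.0032), with 1.95 within replicate 1 and 2.04 within replicates 2 to 4. Sema3a, the class 3 semaphorin known for collapsing sensory growth cones, fell by 0.62 (edgeR adjusted p = 0.00597). Its change was -0.10 within replicate 1 and -0.77 within replicates 2 to 4. Plxnd1, the plexin that binds Sema3e, had a log2 fold change of 0.99 (edgeR adjusted p = 0.0498). Its groups overlapped, and replicate 1 was high in both. It held 65.1 CPM without T3, where the others had 26.2 to 28.2 CPM, and 119 CPM after it, where they had 55.6 to 58.6 CPM.

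Of the ephrin pathway's 22 members, 5 fell in this comparison. DESeq2 also called Efna1, a lipid-anchored ephrin, and Efnb3, both higher, and did not call Epha8, which was lost with its size factors in edgeR too. Efnb1 (ENSMUSG00000031217; GRCm38 chromosome X, 99136130 to 99148991, plus strand), a transmembrane ephrin, was at 25.0, 35.9, 36.1 and 35.8 CPM in untreated and 16.6, 13.7, 12.7 and 15.2 CPM in T3-treated libraries. The treatments did not overlap, with a log2 fold change of -1.19 (SE 0.22, edgeR adjusted p = 0.00245), with -0.58 within replicate 1 and -1.37 within replicates 2 to 4. Efna3, a lipid-anchored ephrin, was at 4.11, 4.06, 5.26 and 4.83 CPM in untreated and 3.03, 2.21, 2.52 and 2.64 CPM in T3-treated libraries. All 4 treated libraries lay lower, and the log2 fold change was -0.81 (SE 0.14, edgeR adjusted p = 0.00157). Efna3 shares over 10% of its exon length with a gene on the opposite strand, and no source used here gives the strand setting of the counting. The receptors Epha5, Ephb3 and Epha8 fell by 0.50, 0.90 and 1.18 on the log2 scale (edgeR adjusted p = 0.0127, 0.0163 and 0.0461).

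Of the 9 netrins, DCC and UNC5 receptors, 0 passed edgeR's test with T3 under the WT label, with 1 at an unadjusted p under 0.05, and DESeq2 called none. With the replicate block described below, 4 were called: Ntn3 and Unc5a were lower by 0.58 and 0.57 (edgeR adjusted p = 0.00486 and 0.00451), and Unc5b and Unc5c higher by 0.61 and 0.44 (0.00175 and 0.00223). Dcc had a log2 fold change of -0.04 and Ntn1 of -0.23. Efnb3 narrowly missed the threshold at 0.96 (SE 0.29, edgeR adjusted p = 0.0526), while its treated libraries, at 110 to 204 CPM, all lay above the untreated ones at 70.7 to 98.4 CPM. In all, 11 members lay above and 12 below their untreated libraries without overlap, against 15.4% of all genes in either direction.

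More members passed in a fit with libraries paired by number, a pairing that the data do not show for replicates 2 to 4. With replicate number as a block in the 8 WT-labelled libraries alone, 40 of 65 members tested were called, 19 higher and 21 lower, where 29.4% of all genes were called. Of the 10 members above, 9 were among the 40, and Epha8 was not tested there. Efnb3 was then higher by 0.93 (edgeR adjusted p = 3.32e-05). Leaving out any single library other than untreated replicate 1 ended the calls of Robo1, Epha8 and Plxnd1 (adjusted p = 0.0595 to 0.211). Epha5 was lost without T3-treated replicate 3 or 4 (up to 0.0616) and Ephb3 without T3-treated replicate 2, 3 or 4 (up to 0.0746). The count fell to 6 without T3-treated replicate 2 and to 5 without T3-treated replicate 3 or 4. Of all genes, 6.09%, 5.49% and 5.16% were called in these fits. Mature oligodendrocyte markers moved with the treatment, with 4 of 7 higher and sums of 12660 to 17000 CPM in untreated and 18250 to 28510 CPM in T3-treated libraries. Neuron markers had 3 of 8 lower (Gad1, Gad2 and Slc17a6), with sums of 348 to 642 and 326 to 425 CPM. Astrocyte markers had 0 of 7 called, but their sums were higher with T3 within each library set. They were 8393 CPM untreated and 15230 CPM with T3 in replicate 1, and 3283 to 3460 and 4879 to 5930 CPM in replicates 2 to 4. No marker of these lists was at 0 in a whole group. Their part in the members' changes was not tested, and in bulk RNA fewer cells of a type and less RNA per cell cannot be told apart.

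Under the RXRgKO label, Sema3d, Sema3e, Sema4d and Ephb1 rose with T3, and Slit1 and Slit3 fell. By edgeR, 4 members rose and 2 fell, or 8.7% of the members against 2.81% of all genes (2.01% higher and 0.794% lower). The median log2 fold change was 0.02 for members and 0.00 for all genes. Changes given below within the libraries with Xist carry the limit stated above, since Ddx3y differed by treatment in that set.

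Sema3d (ENSMUSG00000040254; GRCm38 chromosome 5, 12383385 to 12588948, plus strand), a secreted class 3 semaphorin, was at 17.1, 26.6, 16.3 and 31.1 CPM untreated in replicates 1 to 4 and at 53.2, 48.0, 63.8 and 73.0 CPM with T3. Every treated library lay above every untreated one, and the libraries lacking Xist were the lowest within each treatment. The log2 fold change was 1.39 (SE 0.25, edgeR adjusted p = 0.00445), at 1.59 within the libraries lacking Xist and 1.25 within those with Xist. Sema3d was called in every alternative that was run.

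Sema4d (ENSMUSG00000021451; GRCm38 chromosome 13, 51685529 to 51793747, minus strand), a transmembrane semaphorin that binds Plxnb1, was at 18.5, 20.4, 17.5 and 25.0 CPM in untreated and 29.8, 31.6, 56.7 and 60.6 CPM in T3-treated libraries. The treatments did not overlap, and T3-treated replicates 3 and 4 were high. The log2 fold change was 1.14 (SE 0.24, edgeR adjusted p = 0.0141), at 0.77 within the libraries lacking Xist and 1.37 within those with Xist. Ephb1 (ENSMUSG00000032537; GRCm38 chromosome 9, 101922128 to 102354693, minus strand), a receptor of ephrin-B ligands, was at 22.7, 28.8, 21.1 and 33.8 CPM in untreated and 38.2, 39.0, 97.5 and 99.0 CPM in T3-treated libraries. It too did not overlap, with the same 2 treated libraries high. Its log2 fold change was 1.36 (edgeR adjusted p = 0.0141), at 0.82 and 1.65 within the 2 sets. Sema3e, the ligand of Plxnd1, was at 2.85 to 5.32 CPM in untreated and at 4.60, 5.63, 16.5 and 17.4 CPM in T3-treated libraries, so that its groups overlapped. Its log2 fold change was 1.41 (edgeR adjusted p = 0.0353).

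Slit1 fell under this label too, from 23.7 to 31.4 CPM untreated to 12.2, 12.8, 17.6 and 17.9 CPM with T3. The log2 fold change was -0.87 (SE 0.21, edgeR adjusted p = 0.0364), at -1.0 and -0.77 within the libraries lacking and with Xist. Slit3, a further Slit ligand, fell by 0.95 (edgeR adjusted p = 0.0355), from 2.95 to 4.57 CPM to 1.53 to 2.13 CPM. Slit2 had a log2 fold change of 0.04. Slit1 was the only member called under both labels, 10.0% of the members called under the WT label and 16.7% of those under the RXRgKO label, by a test of each label and not of their difference. Sema3c, called under the WT label, was at 27.4 to 50.8 CPM in untreated and 83.5 to 99.2 CPM in T3-treated libraries here, without overlap, and missed the threshold at 1.16 (SE 0.37, edgeR adjusted p = 0.12).

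Of these 6 calls, all but that of Sema3d were sensitive to single libraries. Slit1 was lost without any library except untreated replicate 3, Slit3 without any except untreated replicate 1, and Sema3e without any except T3-treated replicates 1 and 2 (adjusted p = 0.0517 to 0.161). Ephb1 and Sema4d were lost without untreated replicate 1 or 2 or T3-treated replicate 3 or 4, and Ephb1 also without untreated replicate 3 (0.051 to 0.0899). The count fell to 1 without untreated replicate 2 or T3-treated replicate 3 or 4, to 2 without untreated replicate 1 and to 3 without untreated replicate 3 or 4. Of all genes, 1.23% to 2.04% were called in these fits. The member count also fell to 1 without the libraries with Xist (0.597% of all genes). Groups did not overlap for 6 members higher and 5 lower, against 13.4% of all genes. Mature oligodendrocyte markers again rose with T3 (5 of 7), with sums of 1655 to 2249 CPM in untreated and 2967 to 4728 CPM in T3-treated libraries. Astrocyte markers had 0 of 7 called, but their sums were again higher with T3 within each library set. They were 5526 to 5869 and 7277 to 8299 CPM in the libraries lacking Xist, and 2844 to 2919 and 4415 to 4663 CPM in those with Xist. The part of either list was not tested.

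**Figure D2:**
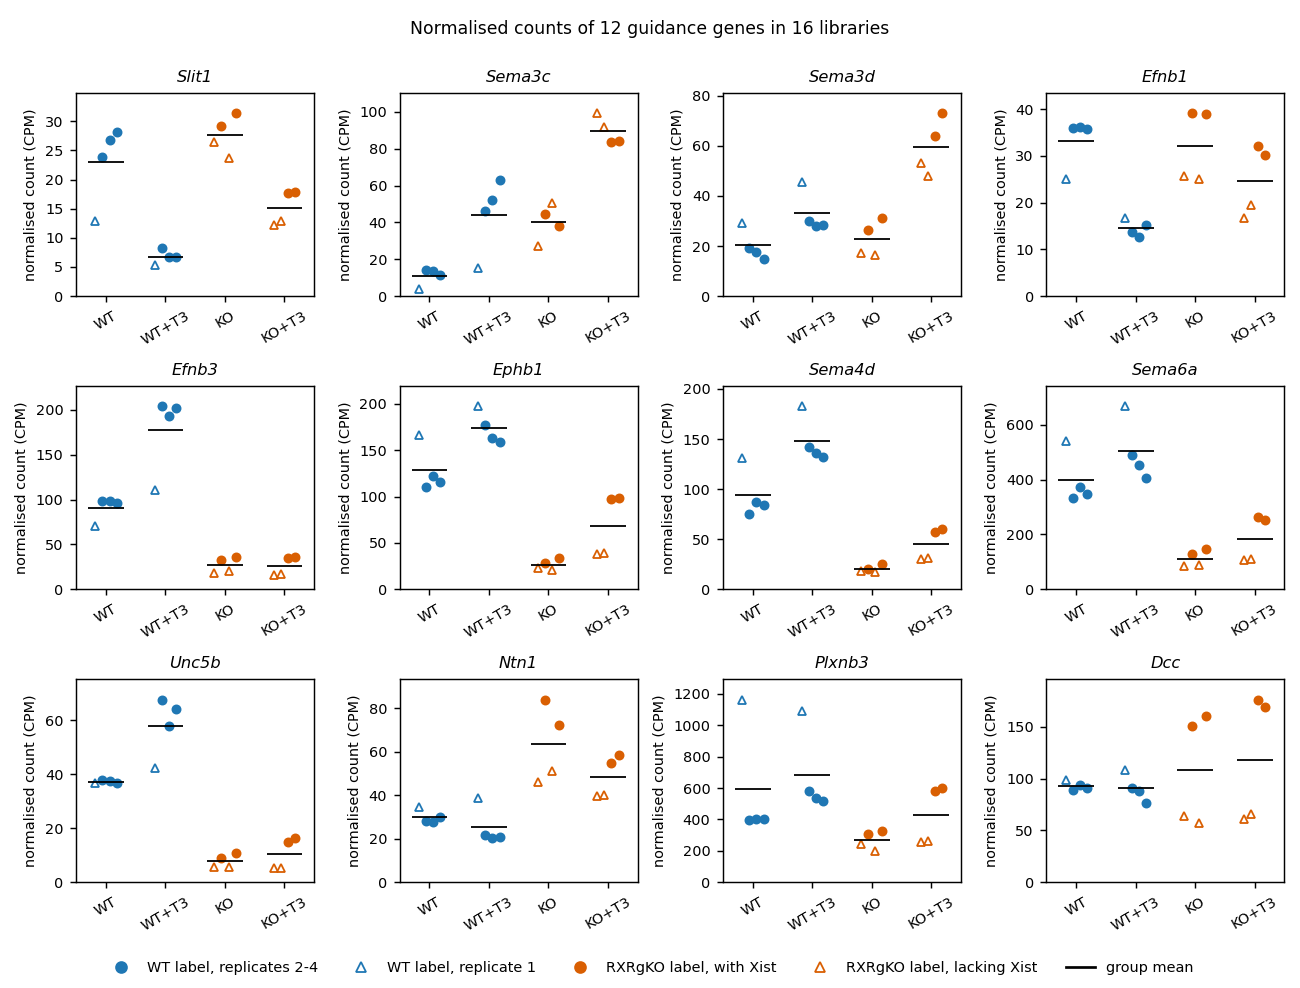
Normalised counts (CPM, linear axes from 0) of 12 members in each of the 16 libraries, by group (KO is the RXRgKO label), with open triangles for the library sets described in the text and bars for group means. Slit1 is lower with T3 under both labels, and Sema4d, Sema6a, Ephb1 and Efnb3 are lower under the RXRgKO label than under the WT label.

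Promoter letters were examined for the members called with T3, since T3 acts through receptors that bind the half-site AGGTCA. RefSeq windows of GRCm38.p6 covering 250 bases upstream of a start were found for 59 of the 69 members. The half-site, searched on both strands, was in 11 of 75 member windows (14.7%) and in 14.0% of 32851 windows of all genes. A pair of these half-sites in the same orientation with any 4 bases between them was in 0 member windows and in 0.0152% of all windows. Of the 15 members called with T3 under either label, 14 had a window, and those of Plxnd1 and Sema4d held a half-site. They are printed here beside that of Sema3c, the member with the largest rise, on the gene's own strand (5′ to 3′). The windows lie at chr6:115995006-115995255 (minus strand) for Plxnd1, chr13:51756684-51756933 (minus) for Sema4d and chr5:17574566-17574815 (plus) for Sema3c. Capitals mark the half-site, which lies on the opposite strand and so reads TGACCT.
Plxnd1: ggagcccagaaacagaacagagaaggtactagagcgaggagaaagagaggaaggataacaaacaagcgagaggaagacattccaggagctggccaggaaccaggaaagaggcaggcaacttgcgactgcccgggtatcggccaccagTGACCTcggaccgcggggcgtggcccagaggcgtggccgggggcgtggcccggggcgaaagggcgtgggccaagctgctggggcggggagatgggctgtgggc
Sema4d: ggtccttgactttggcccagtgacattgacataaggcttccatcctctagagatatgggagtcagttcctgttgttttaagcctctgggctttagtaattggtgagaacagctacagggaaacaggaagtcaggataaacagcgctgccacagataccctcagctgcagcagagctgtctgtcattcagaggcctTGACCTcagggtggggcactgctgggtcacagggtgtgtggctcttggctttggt
Sema3c: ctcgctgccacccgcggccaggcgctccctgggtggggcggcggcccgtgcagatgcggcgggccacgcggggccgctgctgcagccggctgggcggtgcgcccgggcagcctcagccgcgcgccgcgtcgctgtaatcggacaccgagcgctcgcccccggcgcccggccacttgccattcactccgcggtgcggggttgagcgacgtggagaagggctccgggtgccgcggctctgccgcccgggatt
The half-site begins 103 bases upstream of the RefSeq start in Plxnd1 and 55 bases upstream in Sema4d, and these letters do not occur in the Sema3c window on either strand. The Sema4d and Sema3c windows lie inside the gene positions given above, so their starts are not the outermost of these genes. A match describes the letters in the window and not a bound receptor, and the members' share of windows was close to that of all genes.

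Between the genotype labels, Sema4d, Sema5a, Sema6a, Ephb1, Efnb3 and Unc5b were lower and Ntn1, Robo1 and Slit3 higher under the RXRgKO label. Without T3, 7 members were higher and 11 lower under the RXRgKO label by edgeR, 26.1% of the members against 11.3% of all genes (6.17% higher and 5.16% lower). The median log2 fold change was 0.12 for members and 0.00 for all genes. Lower were 5 of 13 class 4 to 7 semaphorins (Sema4d, Sema4g, Sema5a, Sema6a and Sema6d), together with Sema3e, Ephb1, Epha1, Efna1, Efnb3 and Unc5b. Higher were Ntn1, Slit3, Robo1, Sema3c, Efna5, Epha2 and Epha8. With T3, 17 were higher and 13 lower, 43.5% of the members against 14.9% of all genes (8.1% higher and 6.8% lower), and the medians were 0.38 and 0.03. The treated and untreated comparisons use different libraries, but the same kinds of library set occur in both, so they are not shown to be separate repeats. The overlap of calls between them was not counted over all genes. Of the 18 members called without T3, 17 were called in the same direction with T3 (94.4% of those 18 and 56.7% of the 30 called with T3), and Sema3c was not (1.03, edgeR adjusted p = 0.0783).

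Among the transmembrane semaphorins that were lower were Sema6d and Sema6a, which ranked just after Plxnb3 in mean level over all groups. Sema4d was at 131, 74.8, 87.3 and 84.6 CPM in the untreated WT-labelled libraries, against the 17.5 to 25.0 CPM given above. The labels did not overlap, and the log2 fold change was -2.21 (SE 0.24, edgeR adjusted p = 1.51e-05) untreated and -1.73 (SE 0.24, adjusted p = 0.000106) with T3. Sema6a was at 334 to 542 CPM under the WT label and 85.5 to 146 CPM under the RXRgKO label untreated, and at 406 to 668 and 107 to 265 CPM with T3. Its log2 fold changes were -1.83 (edgeR adjusted p = 0.000649) and -1.46 (0.00313). Sema6d was lower by less, at -0.82 and -0.96 (edgeR adjusted p = 0.0293 and 0.00964).

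Sema5a (ENSMUSG00000022231; GRCm38 chromosome 15, 32244810 to 32696341, plus strand), the ligand of Plxnb3, was at 454, 213, 234 and 226 CPM untreated under the WT label and 65.6, 85.0, 64.0 and 96.4 CPM under the RXRgKO label. WT-labelled replicate 1 was high and the labels did not overlap. The log2 fold changes were -1.86 (SE 0.32, edgeR adjusted p = 0.000882) untreated and -1.24 (SE 0.32, adjusted p = 0.0125) with T3. Plxnb3 itself did not pass either test, at -1.14 and -0.68 (SE 0.39 in both, edgeR adjusted p = 0.0758 and 0.295). Its untreated libraries were at 1163, 398, 406 and 406 CPM under the WT label and 241, 309, 197 and 330 CPM under the RXRgKO label.

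Class 3 semaphorins differed in both directions. Sema3e was at 17.2 to 20.8 CPM under the WT label and 2.85 to 5.32 CPM under the RXRgKO label untreated, with log2 fold changes of -2.15 (edgeR adjusted p = 0.000483) and, with T3, -1.82 (0.00119). Sema3c was higher by 1.91 untreated (SE 0.39, edgeR adjusted p = 0.0032), at 27.4 to 50.8 against 3.82 to 14.2 CPM. With T3, Sema3a, Sema3d and Sema3f were higher, by 0.75, 0.85 and 1.32 (edgeR adjusted p = 0.000669, 0.0269 and 0.00616). Among their receptors, Nrp1 was higher by 0.56 with T3 (adjusted p = 0.0338) and Plxna4, a neuropilin partner, by 1.13 (0.0407). Plxnc1, the plexin that binds Sema7a, was higher by 0.83 (0.0181).

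In the Slit and netrin pathways, Slit3, Ntn1 and Robo1 were higher and Unc5b was lower under the RXRgKO label in both treatments. Slit2, Ntn3, Ntn4, Ntn5, Unc5a and Unc5d passed neither test. Robo1 (ENSMUSG00000022883; GRCm38 chromosome 16, 72308306 to 73046095, plus strand) was at 57.9, 87.9, 57.5 and 87.0 CPM untreated under the RXRgKO label, against 29.3 to 46.4 CPM under the WT label. No library overlapped, with log2 fold changes of 0.83 untreated (edgeR adjusted p = 0.0122) and 1.13 with T3 (0.00117). Slit3 was higher by 1.23 and 1.12 (edgeR adjusted p = 0.00213 and 0.0058). Slit1 did not pass untreated (0.27) and was higher by 1.17 with T3 (edgeR adjusted p = 0.00138), when the WT-labelled libraries had 5.34 to 8.26 CPM and the RXRgKO-labelled ones 12.2 to 17.9 CPM.

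Ntn1 (ENSMUSG00000020902; GRCm38 chromosome 11, 68209364 to 68400823, minus strand) was at 34.5, 28.1, 27.7 and 29.9 CPM untreated under the WT label and 46.3, 84.1, 51.2 and 72.5 CPM under the RXRgKO label. All RXRgKO-labelled libraries were higher, those with Xist the most. The log2 fold changes were 1.08 (SE 0.23, edgeR adjusted p = 0.00423) and, with T3, 0.92 (SE 0.23, adjusted p = 0.0106). Unc5b (ENSMUSG00000020099; GRCm38 chromosome 10, 60762593 to 60831581, minus strand), a repulsive netrin receptor, was at 36.6 to 37.8 CPM and 5.65, 8.82, 5.83 and 10.8 CPM. The WT-labelled libraries were nearly level and far above the others. Its log2 fold changes were -2.25 (SE 0.34, edgeR adjusted p = 0.000242) and -2.46 (SE 0.34, adjusted p = 8.84e-05). Unc5c was lower with T3 (-1.36, edgeR adjusted p = 0.00452) and missed the threshold untreated (-0.83, 0.087), and Dcc passed neither test.

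Ephrins and Eph receptors were called in both directions. Efnb3 (ENSMUSG00000003934; GRCm38 chromosome 11, 69554092 to 69560205, minus strand), a transmembrane ephrin known from myelin, was at 70.7, 98.1, 98.4 and 96.2 CPM untreated under the WT label and 17.9, 32.9, 20.3 and 35.5 CPM under the RXRgKO label. With T3 it was at 110, 204, 193 and 202 CPM and at 15.6, 17.2, 35.4 and 35.6 CPM. The labels did not overlap in either treatment, with a log2 fold change of -1.77 (SE 0.30, edgeR adjusted p = 0.000755) untreated and -2.77 (SE 0.31, adjusted p = 1.39e-05) with T3. The other ephrin-B ligands, Efnb1 and Efnb2, did not pass untreated and were higher with T3, by 0.76 and 0.75 (edgeR adjusted p = 0.0256 and 0.04).

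Ephb1 was lower by 2.27 on the log2 scale untreated (edgeR adjusted p = 5.93e-05) and by 1.34 with T3 (0.00343). Its WT-labelled libraries held 110 to 167 CPM untreated, none as low as the 33.8 CPM that was highest under the RXRgKO label. Epha4, a receptor that binds both ephrin classes, was lower with T3 (-0.67, edgeR adjusted p = 0.0237) and at -0.54 untreated (0.0799). Epha2, a receptor of ephrin-A ligands, was low everywhere, at 0.465 to 0.958 CPM under the WT label and 1.61, 6.86, 2.72 and 4.96 CPM under the RXRgKO label untreated, and its log2 fold changes of 2.49 and 1.98 were the largest rises (edgeR adjusted p = 0.00113 and 0.00461). Efna5 was higher by 1.42 and 0.96 (adjusted p = 9.03e-05 and 0.00222). Efna1 was lower by 1.17 and 1.28 (0.0335 and 0.0127), with overlap between labels in the T3 comparison. Epha1 was lower by 1.46 and 2.73 (0.0448 and 0.000419) at under 2 CPM. Epha8, under 2 CPM too, was higher by 1.10 and 1.71 (0.022 and 0.00202), with overlap untreated. Epha6 and Efna3 were higher with T3, by 1.30 and 0.80 (0.00561 and 0.00081).

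**Figure D3:**
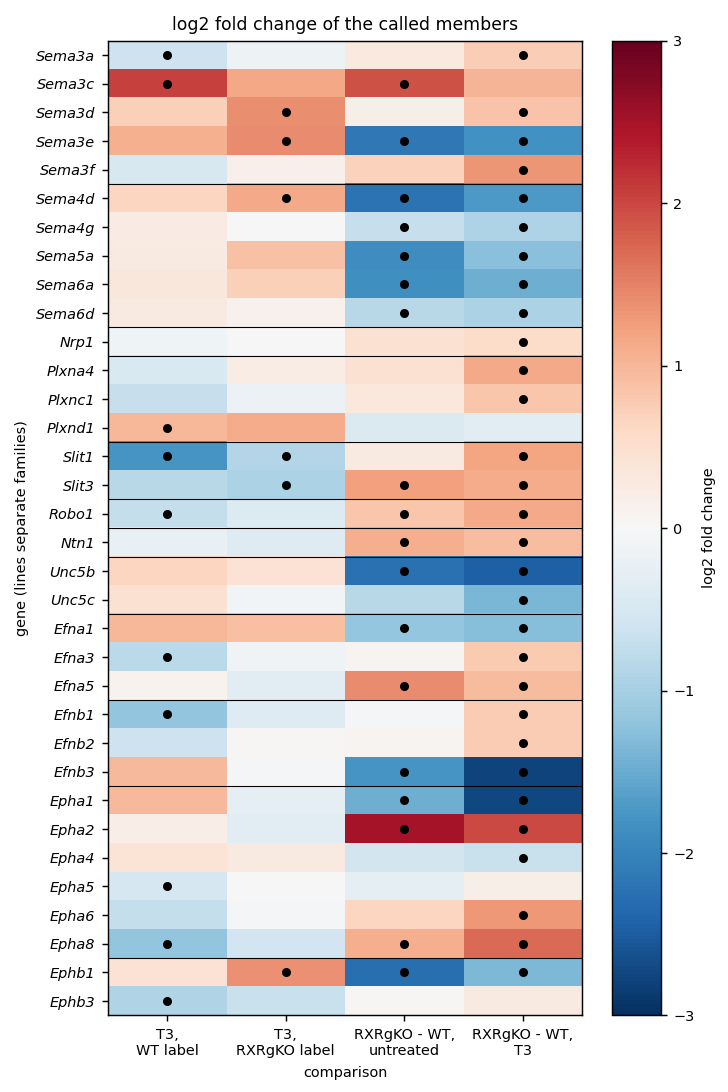
Log2 fold change (colour, from -3 to 3) of the 34 members called in at least 1 comparison, by family, with a dot where the edgeR adjusted p was under 0.05. The 2 right-hand columns, between labels, hold 18 and 30 dots and the 2 left-hand columns, with T3, hold 10 and 6.

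Without T3, 8 members lay above and 17 below the WT-labelled libraries without overlap (18.7% of all genes did so), and with T3 23 above and 14 below (18.1% of all genes). Library sets bore on the direction. Without the RXRgKO-labelled libraries lacking Xist, 17 members were higher and 12 lower untreated and 34 higher and 12 lower with T3. Of all genes, 11.3% and 15.8% were called there. In fits without the RXRgKO-labelled libraries with Xist 5 were higher and 18 lower, and 8 higher and 19 lower, where 20.9% and 27.5% of all genes were called. The latter fit ended 9 calls with T3, those of Slit3, Efnb1, Efnb2, Ntn1, Sema3d, Sema3f, Nrp1, Plxna4 and Plxnc1, whose log2 fold changes were 0.14 to 0.93 there. Without T3 it ended those of Robo1, Epha1, Epha8 and Efna1. Sema3f was at 0.51 with T3 in that fit. The fit without the libraries lacking Xist ended the call of Sema5a with T3 (-0.79) and those of Epha8 and Sema4g without it. With T3, the replicate block in these groups alone ended the calls of Sema3d, Sema3f, Sema4g, Sema5a, Sema6a, Sema6d, Efna1, Efnb1, Efnb2, Epha4, Nrp1, Ntn1 and Plxnc1. Without T3, this block ended those of Epha1, Epha8 and Sema4g. The data did not show a pairing by number between labels, which limits what this block can say. Without T3, omitting any of the 8 libraries singly ended the call of Sema4g (adjusted p = 0.0537 to 0.191). The same held for Epha1 except with WT-labelled replicate 4 or RXRgKO-labelled replicate 3 left out, and for Sema6d except with RXRgKO-labelled replicate 2 or 4 left out (0.0554 to 0.129). Epha8 was lost without WT-labelled replicate 1, 3 or 4 or RXRgKO-labelled replicate 3 or 4, Efna1 without WT-labelled replicate 2, 3 or 4 or RXRgKO-labelled replicate 2 or 4, and Robo1 without RXRgKO-labelled replicate 2 or 4 (0.0541 to 0.0892). With T3, Efnb2, Nrp1 and Plxna4 were lost without any library except RXRgKO-labelled replicates 1 and 2, Sema3d without any except WT-labelled replicate 1 and RXRgKO-labelled replicate 2, and Efnb1 without WT-labelled replicate 2, 3 or 4 or RXRgKO-labelled replicate 3 or 4 (0.0503 to 0.151). Epha4 was lost without WT-labelled replicate 2 or 3 or RXRgKO-labelled replicate 1 or 2, and Plxnc1 without replicate 3 or 4 of either label (0.0632 to 0.103). Ntn1 was lost without WT-labelled replicate 3 or RXRgKO-labelled replicate 4, Efna1 without WT-labelled replicate 4 and Sema5a without RXRgKO-labelled replicate 1 (0.0506 to 0.0529).

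Markers of other cells moved with the genotype labels. Mature oligodendrocyte markers (Mbp, Mag, Mobp and others) were lower in 7 of 7 cases untreated, where sums were 12660 to 17000 CPM under the WT label and 1655 to 2249 CPM under the RXRgKO label, and in 6 of 7 with T3. Mural and mesenchymal markers were higher in 5 of 7 cases, with sums of 64.5 to 79.3 and 212 to 524 CPM untreated, and microglial markers in 5 of 6, with sums of 1.5 to 2.15 and 7.82 to 14.7 CPM. Ependymal markers were higher in 4 of 4 tested and endothelial markers in 3 of 4 tested, with sums of 14.9 to 18.02 and 38.7 to 71.7 CPM and of 6.91 to 9.14 and 21.3 to 49.2 CPM. Neuron markers were higher in 2 of 8 cases untreated and 5 of 8 with T3. No gene of these lists was at 0 in a whole group. OPC and astrocyte markers had 0 calls between labels by edgeR, with 1 of 7 and 2 of 7 at an unadjusted p under 0.05 untreated and 1 of 7 and 0 of 7 with T3. The part of these cells in the members' differences was not tested.

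No member's T3 response passed the test of a difference between labels. By edgeR, 0 of 69 members were called against 0.0658% of all genes (0.0101% higher and 0.0557% lower), and DESeq2 called 0 as well. At an unadjusted p under 0.05 there were 9 members, or 13.0% of them, against 5.15% of all genes. The smallest was Efna3, which fell with T3 under the WT label and had a log2 fold change of -0.10 under the RXRgKO label, with a difference of 0.70 (SE 0.20, unadjusted p = 0.00223, edgeR adjusted p = 0.305). Slit1 differed by 0.90 (SE 0.30, edgeR adjusted p = 0.552) and Efnb3 by -1.0 (SE 0.41, adjusted p = 0.824). A term for library sets, chosen after seeing the data, gave 16 called members, 12 with a higher and 4 with a lower response under the RXRgKO label, and 6.68% of all genes.

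Between the sets of RXRgKO-labelled libraries, most members were higher in those with Xist. Differences of mean log2 CPM were positive for 56 of 69 members untreated, with a median of 0.55 against -0.03 for all genes, and for 59 of 69 with T3, with a median of 0.79 against -0.02. In 53 and 55 members both libraries with Xist lay above both lacking it, and 51 did so in both treatments. The same count was not made over all genes, so it does not show whether the members stand out. Dcc showed it plainly, at 64.0 and 57.6 CPM in the untreated libraries that lacked Xist against 151 and 160 CPM in the others, and at 61.3 and 66.2 against 176 and 169 CPM with T3. Slit2 was at 24.9 and 37.7 against 74.8 and 67.5 CPM untreated, and Epha4 at 99.6 and 93.9 against 124 and 130 CPM. Sema3c was an exception, with differences of 0.14 untreated and -0.19 with T3. The sets hold 2 libraries each and were recognised in the data, so these values are a description with no test. Without T3, OPC markers summed to 4587 to 4596 CPM where Xist was present and 2419 to 2658 CPM where it was not, astrocyte markers to 2844 to 2919 and 5526 to 5869 CPM, and neuron markers to 829 to 880 and 584 to 617 CPM. Over both treatments, reads in genes made up 33.1% to 39.7% of the libraries with Xist and 22.4% to 29.5% of those lacking it, and Gm10800, a predicted gene, was at 925 to 3090 and 12130 to 19940 CPM. The part of these measures was not tested.

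**Figure D4:**
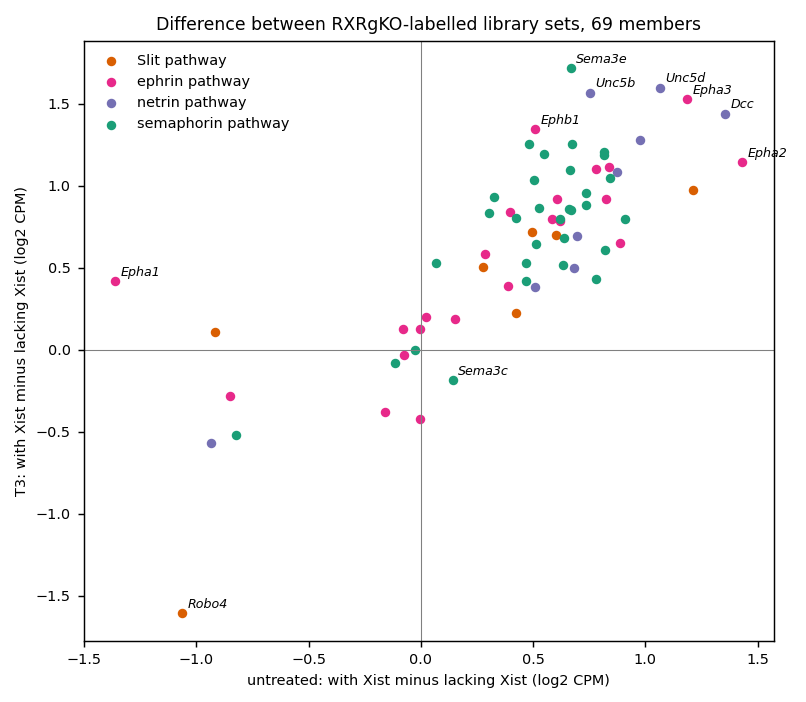
Difference in mean log2 CPM between RXRgKO-labelled libraries with and lacking Xist for each of the 69 members, untreated (horizontal) and with T3 (vertical), coloured by pathway. Most points lie in the upper right, 56 members being above 0 untreated and 59 with T3.

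Co-receptors and signal transducers of these pathways, a list of 58 genes of which 57 were tested, had medians of -0.03, 0.08, 0.00 and 0.12 in the 4 comparisons of groups, against -0.03, 0.00, 0.00 and 0.03 for all genes. With T3 under the WT label 3 rose and 4 fell (12.3% against 8.44%). Draxin, a secreted netrin-binding protein, fell by 1.23 (SE 0.13, edgeR adjusted p = 2.41e-05), and Ablim3, an actin-binding protein, by 1.57 (adjusted p = 0.000154). Chl1, an adhesion molecule that partners neuropilins, rose by 1.02 (edgeR adjusted p = 0.000327), and Mical1, an oxidase that acts on actin downstream of plexins, fell by 0.90 (0.00195). Under the RXRgKO label 2 rose and 1 fell (5.26% against 2.81%), with Chl1 at 1.14, Rnd1, a plexin-binding GTPase, at 0.54 and Draxin at -0.57 (edgeR adjusted p = 0.000278, 0.0406 and 0.027). Between labels, 3 were higher and 4 lower without T3 (12.3% against 11.3%) and 5 and 5 with T3 (17.5% against 14.9%). Mical3 was lower by 1.60 and 1.65 in these comparisons (adjusted p = 0.000148 and 9.52e-05). Without T3, Rnd1 was higher by 0.92, Rgs3, a regulator that binds ephrin-B tails, lower by 1.10, and Abl1, a kinase that acts with Robo, lower by 1.18 (0.000229, 0.00192 and 0.00208). With T3, Ablim3, the adhesion molecule L1cam and Flrt2, a ligand of UNC5 receptors, were higher by 1.65, 1.05 and 1.24 (4.29e-05, 7.74e-05 and 8.04e-05).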

How the data were processed

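The submitters' processing notes name STAR 2.5.3a, HTSeq 0.6.1p1 and the mm10 build, with no order or settings. No source used here gives the counting's strand setting or annotation. The authors deposited raw read counts per Ensembl gene. HTSeq's summary lines were left out. Symbols, positions and exon lengths came from GENCODE M21, which held 55154 of the 55335 identifiers.

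All 16 libraries entered 1 fit in edgeR 4.0.16 (R 4.3.3, limma 3.58.1): TMM, filterByExpr by group (19764 genes), robust quasi-likelihood dispersions, a mean per group and Benjamini-Hochberg adjustment over all genes. Genes with an adjusted p under 0.05 were called. SEs are the absolute log2 fold change over the square root of F, and RPKM used the union of exons. The fit was tested on simulated data. Counting error adds to the spread of low genes.

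Members, lists and tests were chosen with earlier results of these data known. Named were members called in any comparison, the 3 highest per pathway by RPKM, 5 founders (Dcc, Ntn1, Slit2, Robo1, Nrp1), up to 4 called genes of each list per comparison, and Rxrg. Further members were named after their values were seen. A marker that the rule names is not reported here. Residuals of same-numbered WT-labelled libraries correlated at 0.648, 0.247, 0.211 and 0.164 between treatments, for replicates 1 to 4. The strongest match had the same number for replicate 1 and a different number for replicates 2 to 4. The WT-labelled libraries were still paired by number in the block, but these values do not show that replicates 2 to 4 are pairs. Under the RXRgKO label the correlations were 0.543, -0.629, -0.697 and 0.6. Replicates 2 and 3 there fall in different library sets in the treated and untreated groups. Between labels the correlations ran from -0.391 to 0.291. None of these other comparisons showed pairs by number. Alternatives were DESeq2 1.42.0, its size factors, other filters (none, or 1 CPM in 4 libraries), fewer libraries, blocks and, for levels, the longest transcript. The library set as a term was added after seeing the data.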

Additional observations from a re-analysis of the deposited data

Results flagged for a closer look

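Among the named members and the families, 204 groups of 4 libraries were examined for a library far from the other 3, and 23 (11.3%) had one, where chance gives about 1 in 20. All 23 were WT-labelled replicate 1, so they describe 1 library per treatment and are not independent. This replicate was already seen to stand apart, so the share beside that of chance is a description and not a test. The rule looks for 1 library apart from 3, so the RXRgKO-labelled groups, split 2 against 2 by Xist, could hardly be flagged. Their lack of flags does not show that they are uniform. Untreated, this replicate was far above the others for Plxnb3 (1163 CPM against 398 to 406), Plxnd1 (65.1 against 26.2 to 28.2) and Sema5a (454 against 213 to 234). It was far below them for Plxna4 (16.0 against 46.4 to 48.1), Efnb1 (25.0), Efnb2 (35.9 against 56.5 to 57.1), Efnb3 (70.7), Robo1 (29.4) and Slit3 (0.772 against 1.78 to 1.94 CPM). Family sums followed, high for plexins (272 RPKM) and EphB receptors (43.4), and low for ephrin-B ligands (34.7) and neuropilins (2.79 RPKM).

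With T3 the replicate was again high for Plxnb3 (1092 CPM against 517 to 581) and Plxnd1 (119), and also for Ntn1 (38.9 against 20.6 to 21.8), Ntn4 (19.6 against 14.0 to 14.9) and Sema3d (45.6 against 28.1 to 29.9). It was low for Efnb3 (110 against 193 to 204) and Epha1 (0.98 against 1.52 to 1.58 CPM). The sums were high for plexins (276 RPKM) and netrins (13.4) and low for ephrin-B ligands (44.8 RPKM). Astrocyte markers in this replicate summed to 8393 CPM without T3 (3283 to 3460 in the other WT-labelled libraries) and 15230 CPM after it (4879 to 5930), and their part was not tested.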

How the results depend on the processing

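No call of a member reversed in any setting run. Of 64 calls of a member in a comparison, 32 were kept in every setting and 32 were lost in at least 1. For T3 under the WT label, the 10 calls became 17 with DESeq2, 6 without a count filter and 20 with only the groups compared. Of all genes, 12.2%, 2.28% and 9.35% were called there. The replicate block, a pairing by number, gave 40 with those groups alone (29.4% of all genes). The library set as a term gave 48 (18 higher and 30 lower, with 38.4% of all genes called). Leaving out each library in turn gave 5 to 15 (4.83% to 12% of all genes). For T3 under the RXRgKO label, the 6 calls became 3 without a count filter (0.765% of all genes). They became 1 with the replicate block in those groups alone (0.752%) and 1 without the libraries with Xist (0.597%). Under this label the block pairs replicates 2 and 3 across library sets, which limits what its count can say. The set term gave 29 (15 higher, 14 lower, 33.6% of all genes), and single omissions gave 1 to 4 (1.23% to 2.46%). Between labels without T3, 18 became 29 without the libraries lacking Xist (11.3% of all genes), and single omissions gave 13 to 16 (8.42% to 10.7%). With T3, 30 became 18 with the replicate block in those groups alone (7.98% of all genes) and 46 without the libraries lacking Xist (15.8%). Single omissions gave 23 to 31 (10.5% to 15.4% of all genes). For the response difference the set term gave 16 (6.68% of all genes), and single omissions gave 0 to 0 (0.0145% to 0.237%). The cause of these shifts was not tested. In the other settings, single omissions aside, each count stayed within 1.5 times its value. Of 96 family levels recomputed, 29 moved by more than the spread between replicates, all with the longest transcript as length. Low counts limit Epha1, Epha8, Slit3 and Robo4.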
